A study of Mus musculus with 2 samples.

Results

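Dense stitched peak clusters are stretches of the genome in which many accessible regions lie close together. They were defined on the control library of a mouse CD8+ T cell ATAC-seq series, an assay that reads out where DNA is open to a transposase carrying sequencing adapters. Control peaks on chromosomes 1 to 19 were taken, and those overlapping 1 kb on each side of an end of a protein-coding gene were dropped. The remaining 67316 peaks were joined wherever the gap between neighbours was 12500 bp or less, which gave 27084 groups, and the 739 groups with 10 or more peaks are the clusters described here. They hold 10710 control peaks, 15.9% of the control peaks away from gene ends. The positions and number of control peaks chose the clusters, so their density in control is a description, and what the treatment library holds in the same spans is what was read out.

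The series has 2 libraries. One is titled treatment and the other control, with 1 library each and no replicate. The treatment field of the labels reads "Combined treatment" for the library titled treatment and "Treatment" for the one titled control, and neither says what was given. The cells are labelled T cells, and CD8+ in the titles. The genotype field holds no allele, and the sources used here state neither strain, age, tissue of origin nor pooling. Treatment and control below mean the libraries with these titles. The deposited lists held 65098 treatment and 85285 control peaks, of which 63351 and 83295 lay on chromosomes 1 to 19. Away from gene ends, 49349 treatment and 67316 control peaks remained, a ratio of 0.733. With 1 library in each group there is no spread between replicates to set a difference against. No test was therefore run, and each comparison is of the libraries and not of the conditions. Intervals beside percentages are 95% Wilson intervals, and counting error is all they cover. All 9 T cell markers checked (Cd3e, Cd3d, Cd3g, Cd247, Cd8a, Cd8b1, Cd2, Cd5 and Lck) had a peak within 1 kb of a gene end in both libraries. So had 3 of 6 B cell markers in each library, 4 of 6 myeloid markers in treatment and 6 of 6 in control, 2 of 4 stromal markers in each, and none of 4 NK cell markers in either. Cd4 and Zbtb7b also had such peaks in both libraries, and Foxp3 in neither.

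Enhancers are stretches of DNA that bind transcription factors and act on promoters from a distance, and active ones are open to the transposase. Enhancers that crowd together around one gene are often found at the genes that define a cell type, such as the antigen receptor genes and lineage factors of T cells. Joining enhancers across gaps of this size is the usual first step in listing super-enhancers, which are then ranked by a histone mark or a bound coactivator. No such mark was measured here, so the clusters are not called super-enhancers, and the gene that a cluster overlaps or lies nearest to need not be the one it acts on.

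A few stretches of sequence show what lay under the peaks. Transcription start sites that lie inside a cluster but away from the ends of a gene's span carry a RefSeq promoter window (GRCm38.p6, the assembly of mm10), which runs from 250 bases before the start to 50 after it. Of the windows in clusters that belong to a gene of the T cell or other cell type lists, or to a gene under one of the 15 clusters with the lowest ratio of treatment to control peaks, 12 held the summit of a control peak. In 9 the peak overlapped a treatment peak and in 3 it did not, beside an overlap of 75.8% over all control peaks in clusters. Windows on a single chromosome of the 19 were left out of this choice, so these counts do not cover its clusters. The 3 without are given first, followed by the 3 with the highest fold enrichment among the 9, each read 5′ to 3′ on the strand of its gene. Capitals mark matches, on either strand, to GGAAGT (ETS), TGTGGT (RUNX), CTTTGA (TCF/LEF), TGANTCA (AP-1), GGAAAA (NFAT), GGGCGG (GC box) and GGTGTG (T-box). The ETS and NFAT searches share the letters GGAA, and matches of different motifs were counted separately even where they share bases. A match is a description of letters and not a bound site.
Mcf2l, chr8:12949173-12949472, plus strand: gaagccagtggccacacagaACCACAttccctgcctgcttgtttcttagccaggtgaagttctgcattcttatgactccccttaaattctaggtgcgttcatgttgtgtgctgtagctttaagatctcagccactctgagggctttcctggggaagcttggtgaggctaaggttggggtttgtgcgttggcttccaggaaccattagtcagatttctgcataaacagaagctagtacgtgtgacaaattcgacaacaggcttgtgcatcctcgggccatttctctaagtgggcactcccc
Mcf2l, chr8:12915661-12915960, plus strand: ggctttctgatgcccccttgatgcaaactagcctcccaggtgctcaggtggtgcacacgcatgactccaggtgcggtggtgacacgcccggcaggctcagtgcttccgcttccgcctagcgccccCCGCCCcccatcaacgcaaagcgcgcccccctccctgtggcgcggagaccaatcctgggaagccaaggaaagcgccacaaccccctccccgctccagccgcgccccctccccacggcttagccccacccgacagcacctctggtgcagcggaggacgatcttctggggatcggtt
Zap70, chr1:36764265-36764564, plus strand: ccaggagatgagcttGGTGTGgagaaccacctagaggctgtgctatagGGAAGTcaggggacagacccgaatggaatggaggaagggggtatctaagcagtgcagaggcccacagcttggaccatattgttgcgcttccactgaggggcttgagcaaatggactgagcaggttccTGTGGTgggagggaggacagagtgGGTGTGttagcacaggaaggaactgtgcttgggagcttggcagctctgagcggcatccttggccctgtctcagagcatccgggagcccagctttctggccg
Prdm1, chr10:44458699-44458998, minus strand: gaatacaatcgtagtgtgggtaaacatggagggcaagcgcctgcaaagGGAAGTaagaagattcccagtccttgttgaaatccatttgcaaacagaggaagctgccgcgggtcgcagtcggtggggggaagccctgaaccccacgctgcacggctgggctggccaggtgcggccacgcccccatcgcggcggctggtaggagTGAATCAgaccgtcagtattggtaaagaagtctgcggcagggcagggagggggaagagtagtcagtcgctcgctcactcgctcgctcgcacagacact
Nr4a1, chr15:101266596-101266895, plus strand: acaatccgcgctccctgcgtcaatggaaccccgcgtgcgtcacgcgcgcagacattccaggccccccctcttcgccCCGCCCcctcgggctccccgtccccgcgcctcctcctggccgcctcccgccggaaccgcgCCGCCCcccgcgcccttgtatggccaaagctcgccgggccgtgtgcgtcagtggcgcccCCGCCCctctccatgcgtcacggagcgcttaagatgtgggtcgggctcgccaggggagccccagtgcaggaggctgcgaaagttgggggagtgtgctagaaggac
Lck, chr4:129558323-129558622, minus strand: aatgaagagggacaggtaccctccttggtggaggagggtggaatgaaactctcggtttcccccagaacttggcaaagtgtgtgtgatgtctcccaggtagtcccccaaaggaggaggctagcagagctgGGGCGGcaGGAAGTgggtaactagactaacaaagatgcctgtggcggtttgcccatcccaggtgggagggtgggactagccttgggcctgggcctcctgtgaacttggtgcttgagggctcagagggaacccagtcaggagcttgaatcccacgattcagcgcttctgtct
The first Mcf2l window lay under a control peak with a fold enrichment of 8.42 and the second under one with 3.70, and both were without a treatment peak. Mcf2l encodes a guanine nucleotide exchange factor. Zap70 encodes the kinase recruited to the activated T cell receptor, and its inner window lay under a control peak of only 2.27. The inner window of Prdm1, the gene of Blimp-1, a factor that drives late effector differentiation, had a fold of 16.4 in the treatment list and 16.7 in the control list. The window of Nr4a1, an orphan nuclear receptor induced by antigen receptor signalling, had 12.7 and 15.1, and that of Lck, the kinase bound to CD8, had 14.1 and 13.9. The Nr4a1 window held 3 GC boxes, the window of Zap70 held 2 T-box, 1 RUNX and 1 ETS match, and the Prdm1 window held 1 ETS and 1 AP-1 match.

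Over the windows of all RefSeq genes, coding or not, that lay in clusters and away from the ends of coding genes, 326 lay under a control peak and also a treatment peak, and 57 under a control peak only. The GC box stood in 43.6% of the 326 windows, 26.3% of the 57 and 35.9% of all 31363 promoter windows on these chromosomes. In the 351 windows in clusters with no control peak it stood in 14.2%. The T-box letters stood in 19.02% of the 326, 36.8% of the 57 and 19.02% of all windows, and in 29.3% of the 351 windows in clusters with no control peak. The ETS letters were found in 29.8%, 24.6% and 23.9% of the 326, the 57 and all windows. The RUNX letters were found in 20.2%, 26.3% and 16.7%, and the TCF/LEF letters in 14.4%, 21.1% and 15.9%. For AP-1 the shares were 9.51%, 7.02% and 7.85%, and for NFAT 20.9%, 19.3% and 23.3%. In the 351 windows the shares were 18.8% for ETS, 22.5% for RUNX, 16.2% for TCF/LEF, 9.12% for AP-1 and 23.1% for NFAT. Median G and C content was 56.0% in the 326 windows, 53.0% in the 57, 50.3% in the 351 and 53.0% in all windows. The part of base composition in these shares was not tested.

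The clusters also held 45 of 919 RefSeq microRNA hairpins on these chromosomes. Of these, 7 lay under a peak in both libraries and 3 under a control peak only, with peaks at gene ends counted. Of all control peaks in clusters away from gene ends, 75.8% overlapped a treatment peak. The 3 hairpins under a control peak only are Mir33, Mir1953 and Mir6516. Mir33 sits in the gene of the sterol regulator Srebf2 and limits cholesterol export. Their mature RNAs are given with the seed, bases 2 to 8, in capitals, beside miR-138-5p, whose hairpin lay under a peak in both libraries.
miR-33-5p, chr15:82198127-82198147, plus strand: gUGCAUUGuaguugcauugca
miR-1953, chr2:151967581-151967602, minus strand: uGGGAAAGuucucaggcuucug
miR-6516-5p, chr11:117077370-117077391, plus strand: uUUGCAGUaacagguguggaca
miR-138-5p, chr8:94324312-94324334, plus strand: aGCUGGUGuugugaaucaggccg
No 2 of these 4 share a seed. What was measured is accessible DNA at the hairpin, not the level of the RNA.

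The clusters spanned 19.1 to 247 kb, with a median of 62.2 kb, and 51.4 Mb in all. The control count had a median of 12 and reached 58, and 179 clusters stood at the minimum of 10. Their control peaks were weaker by the authors' fold enrichment over local background than the other control peaks away from gene ends, with medians of 6.25 and 7.73. By −log10 p-value they stood the other way: 30.1% lay in the strongest quartile of all control peaks away from gene ends, against 24.03% of the other peaks, and 22.2% in the weakest quartile, against 25.5%. They were slightly wider, at 511 and 463 bp. Control peaks covered 12.3% of the spans. Of the 739 clusters, 630 overlapped at least 1 protein-coding gene, 397 exactly 1, and 109 lay between genes. The 630 touched 955 of 20661 protein-coding genes. In all, 61.03% of the control summits in clusters lay in a coding gene body, against 55.3% elsewhere. Chromosome 11 had the most clusters, with 79, and chromosome 18 the fewest, with 17.

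In the same spans the treatment library had 8510 peaks away from gene ends, against 10710 in the control library, a ratio of 0.795. Outside the clusters the ratio was 0.721, with 40839 treatment and 56606 control peaks. The ratio of single clusters ran from 0.182 to 1.33 with a median of 0.80 and an interquartile range of 0.692 to 0.90. Treatment had fewer peaks in 637 clusters, as many in 65 and more in 37. By chromosome the ratio in clusters ran from 0.738 on chromosome 5 to 0.850 on chromosome 14, and it was above that of all peaks away from gene ends on every chromosome of the 19 except chromosome 8, where it was 0.753 against 0.755. The clusters were chosen on control counts, a choice that can lower the ratio. Its part in the shortfall was not tested. Spans stitched from the treatment peaks by the same rule numbered 374 and had a ratio of 0.985, and spans stitched from both lists merged numbered 863 and had a ratio of 0.830. With the control list cut to the length of the treatment list by −log10 p-value, the ratio in the 739 spans was 1.04, and 0.988 outside them. Of the 70 clusters named by rule, 26 with a ratio under 1 had one above 1 with these lists.

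**Figure D1:**
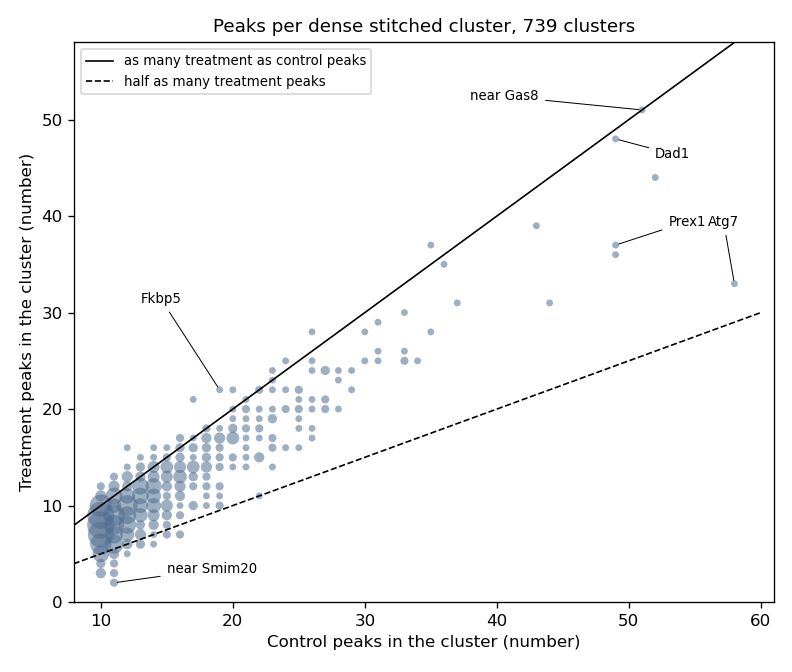
Treatment peaks (vertical axis) against control peaks (horizontal axis) in each of the 739 clusters, as numbers of peaks away from gene ends. Larger points hold more clusters, the solid line marks equal numbers and the dashed line a ratio of 0.5. Most clusters lie between the lines, the cluster near Gas8 lies on the solid line with 51 peaks in each library, and that at Atg7, with 33 and 58, lies close to the dashed line.

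A ratio of 0.5 or less was found in 45 of the 739 clusters (6.09%), against 20.7% of the 2556 stitched groups of 5 to 9 control peaks. A ratio of 1 or more was found in 102 clusters (13.8%), against 19.2% of those smaller groups. Groups of few peaks reach both ends of the range more easily, and the part of group size in these shares was not tested. The pooled ratio was 0.720 in the groups of 5 to 9 and 0.795 in the clusters. At the threshold itself, the 179 clusters of 10 control peaks had a ratio of 0.777 and the 200 groups of 9 had 0.742.

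Of the control peaks in clusters, 75.8% (74.9 to 76.6%) overlapped a treatment peak, against 65.2% (64.8 to 65.6%) of the other control peaks away from gene ends. Not overlapped were 2595 peaks in clusters, beside 33.1% of all control peaks away from gene ends. Of the treatment peaks in the spans, 402 or 4.72% (4.29 to 5.20%) were without a control peak, against 8.89% (8.62 to 9.17%) of the other treatment peaks away from gene ends. The overlap was higher in larger stitched groups. It was 59.9% for single control peaks, 63.7% for pairs, 69.7% in groups of 5 to 9, 74.2% in clusters of 10 to 14, 76.7% in clusters of 15 to 19 and 78.2% in clusters of 20 or more. Over the same sizes the median fold enrichment of the control peaks was lower in larger groups, at 8.32, 8.12, 7.19, 6.80, 6.31 and 5.26. Treatment peaks covered 9.88% of the spans, and the part of this density in the overlap was not tested. With 50% reciprocal overlap the share was 69.5% in clusters and 59.5% elsewhere, and with summits within 150 bp it was 69.6% and 61.6%.

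**Figure D2:**
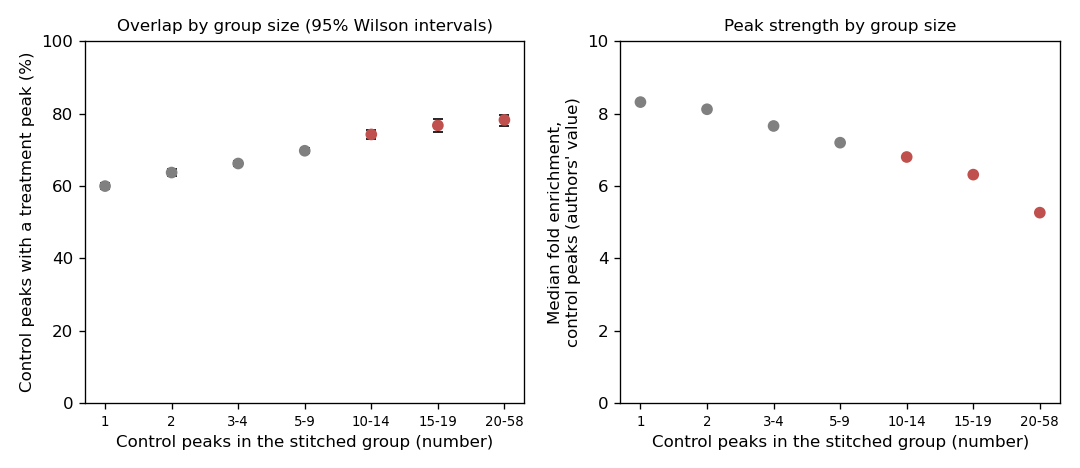
Left, percentage of control peaks that overlap a treatment peak, by the number of control peaks in the stitched group, with 95% Wilson intervals; right, median fold enrichment of the same control peaks. Groups of 10 or more peaks, the clusters, are red. The overlap is 59.9% for single peaks and 78.2% in the largest clusters, while the median fold enrichment is 8.32 and 5.26.

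The overlap was higher in clusters at each level of peak strength. In quartiles of the control −log10 p-value, weakest to strongest, 40.4%, 63.6%, 89.3% and 99.3% of the control peaks in clusters had a treatment peak. The corresponding shares of the other control peaks were 27.7%, 52.7%, 84.1% and 98.7%. In quartiles of fold enrichment the shares were 52.2%, 76.4%, 91.0% and 97.9% in clusters and 32.6%, 51.5%, 77.8% and 95.2% elsewhere. Fold enrichment is taken over a local background that neighbouring open regions can raise, so equal folds need not mean equal signal inside and outside clusters. Within clusters, the peaks with a treatment partner had a median fold of 7.66 and those without one 3.62. The first median was the higher in 685 of the 706 clusters that held both kinds. The treatment-only peaks in clusters had a median of 2.59 in their own list, against 6.40 for the treatment peaks that met a control peak.

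**Figure D3:**
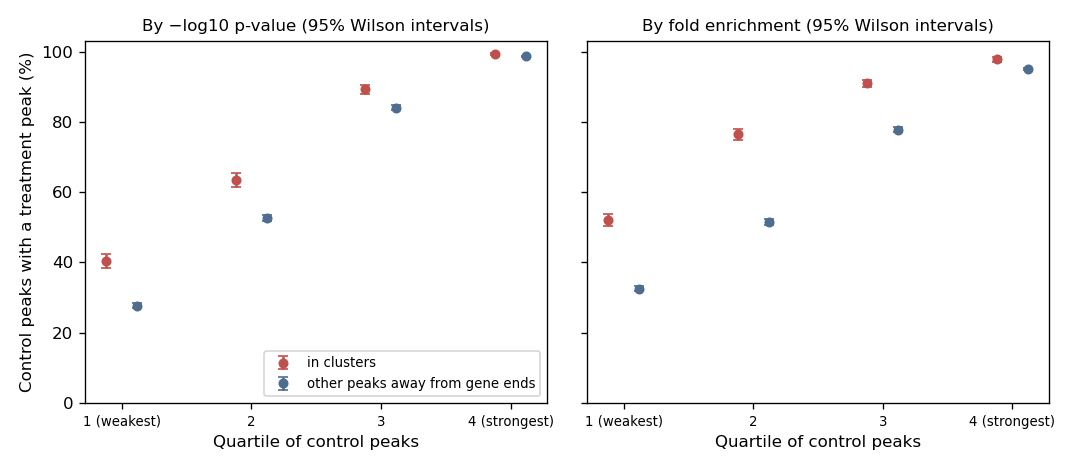
Percentage of control peaks with a treatment peak, in quartiles of −log10 p-value (left) and of fold enrichment (right), for control peaks in clusters (red) and the other control peaks away from gene ends (blue), with 95% Wilson intervals. The gap is 12.7 percentage points in the weakest quartile of −log10 p-value and 0.643 in the strongest.

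Peaks at gene ends inside the spans were left out by the rule and give a separate reading. Of 620 such control peaks, 86.8% (83.9 to 89.2%) overlapped a treatment peak, against 86.5% (86.0 to 87.1%) of the 15359 gene-end peaks elsewhere, and the first interval contains the second. By position inside a cluster the intervals also overlapped. Of the control peaks of clusters in a gene body 75.9% (74.8 to 76.9%) had a treatment peak, and of those between genes 75.6% (74.3 to 76.9%). At the outermost peaks of a cluster the share was 73.6% (71.3 to 75.8%), and at inner peaks 76.1% (75.2 to 77.0%). Of 9971 pairs of neighbouring control peaks, 5820 had a treatment partner at both, 3502 at 1 and 649 (6.51%) at neither. The longest run of control peaks with no treatment peak was 8, at Mcf2l. Runs of 3 or more were found in 108 clusters. Every control peak had a treatment peak in 33 clusters, and no treatment-only peak was found in 464. In 419 clusters the treatment library itself had 10 or more peaks, and 324 (43.8%) overlapped one of the 374 clusters stitched from treatment peaks alone.

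The clusters with the lowest ratios were small. Of the 15 lowest, 1, that at Tox2, overlapped a gene of the T cell lists. Over all 739 clusters 50 did, a similar share. The 15 lowest had 10 to 14 control peaks and ratios of 0.182 to 0.429, with 53 treatment and 162 control peaks in all. None of the 15 held a treatment-only peak, and neither did 464 of all 739 clusters. Of the 162 control peaks, 108 had no treatment partner. With lists of equal length 9 of the 15 stayed at a ratio of 0.5 or less, and Aipl1 (0.571), Nmnat2 (0.667), Aoc2 (0.75) and Rapgef3 (a ratio of 1) were among those that did not. Mcf2l was then at 0.333 and, with peaks under a −log10 q-value of 10 dropped, at 0.10. Tox2 and the cluster near Clmp were at 0.5. The 108 control peaks without a partner had a median fold of 4.46, and the 54 with a partner had 10.6. These clusters were chosen for their ratio, so the ratio and the counts of unmatched peaks are a description.

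The 2 lowest, each with 2 treatment and 11 control peaks, lay between genes at chr5:53381953-53448478, nearest to Smim20 at 103413 bp, and in Mcf2l at chr8:12895547-12957562. In the first, the strongest control peak of the cluster, with a fold of 17.8, was among those with no treatment peak. A cluster between genes at chr7:136254098-136294782, for which the nearest coding gene, Mki67, is 537648 bp away, had 3 and 11. So had one over Adprhl1 and Dcun1d2, a cofactor of cullin neddylation, on the same chromosome as Mcf2l at chr8:13203446-13265777.

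Tox2, an HMG-box factor related to Tox, shared with Jph2 a cluster at chr2:163273974-163355924 with 3 treatment and 10 control peaks. The 3 control peaks with a treatment partner had a median fold of 14.6 and the other 7 had 3.89, although the strongest of the 7 stood at 12.6. The cluster over the amine oxidase genes Aoc2 and Aoc3 and G6pc, the glucose-6-phosphatase of liver, also had 3 and 10, and its strongest control peak, with a fold of 15.1, was without a treatment peak. So did clusters between genes near Clmp, at chr9:40608019-40643121, and near Cyria, at chr12:12533831-12593656. A different cluster, inside Cyria at chr12:12263361-12324131, was among the 15 highest, with 13 treatment and 11 control peaks. Cyria encodes a regulator of Rac1 and actin.

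At 4 treatment and 11 control peaks stood Aipl1, a chaperone of photoreceptors, and a stretch of variable segments of the immunoglobulin heavy chain locus, chr12:114748706-114791481. Nmnat2, a neuronal enzyme of NAD synthesis, Cd300a with Cd300lb, receptors of myeloid cells, and Mettl7a1 with Mettl7a3 each had 4 and 10. Of the 6 myeloid markers, Lyz2 and Csf1r were those with a peak at a gene end in the control library and none in treatment, and the part of myeloid cells in the Cd300 values was not tested. Erg, an ETS factor of early blood and endothelial cells, had 5 and 12 at chr16:95403573-95456173. Rapgef3 with Slc48a1 and Hdac7, a histone deacetylase active in thymocytes, had 6 and 14.

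**Figure D4:**
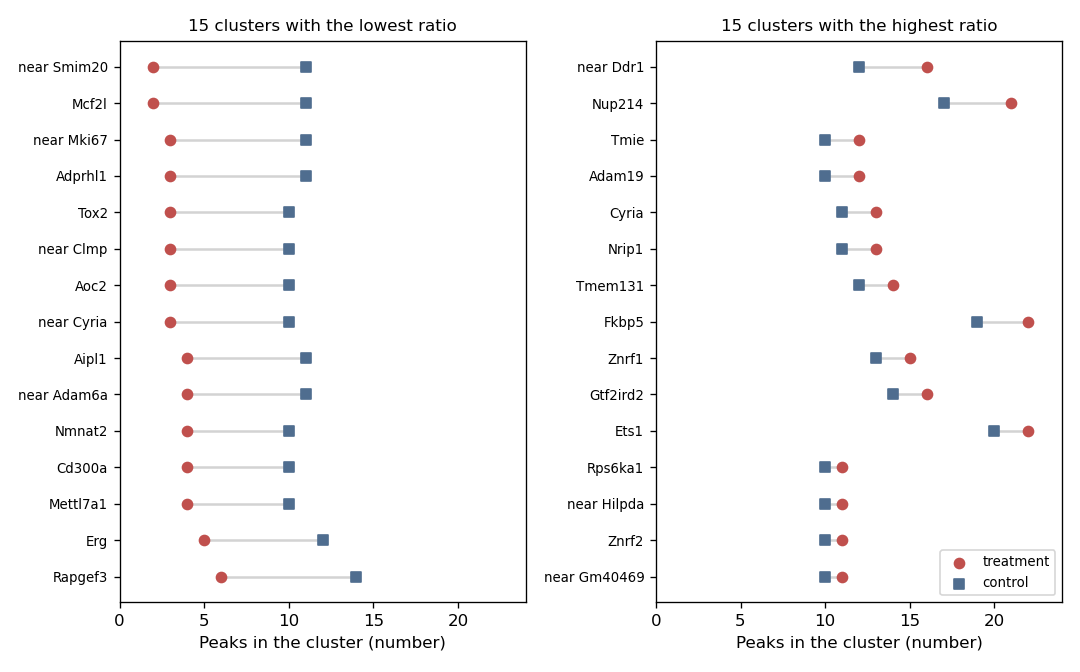
Treatment (red circles) and control (blue squares) peaks, as numbers, in the 15 clusters with the lowest ratio (left) and the 15 with the highest (right), named by the first coding gene overlapped or the nearest one. On the left treatment has 2 to 6 peaks against 10 to 14 in control, and on the right 11 to 22 against 10 to 20.

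The 15 highest clusters had ratios of 1.10 to 1.33, with 220 treatment and 189 control peaks. In 7 of them every control peak had a treatment partner, as in 33 of all 739 clusters. Each had at least 1 treatment-only peak, while 464 of the 739 had none. The 15 held 38 treatment-only peaks and 13 control peaks without a treatment partner. They were chosen for their ratio, which bears on both counts, so these are a description. The first, at chr17:35720144-35766929 and 15403 bp from Ddr1, had 16 treatment and 12 control peaks, of which 3 were treatment-only. Nup214, a nucleoporin, and Fam78a shared a cluster with 21 and 17. Fkbp5, a co-chaperone of the glucocorticoid receptor and a classic target of it, had 22 and 19 at chr17:28407154-28528411, and all 19 control peaks had a partner. With gene ends not dropped its ratio fell below 1, at 0.971.

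Ets1, the ETS factor of T cell development and naive cells, had 22 treatment and 20 control peaks at chr9:32693559-32747929. Only 17 of the 20 control peaks met a treatment peak there, and 5 treatment peaks were treatment-only, in a stretch of weak peaks with a median control fold of 3.29. Joined across gaps of up to 25 kb, the Ets1 cluster had a ratio of 0.962. Adam19, a membrane protease, had 12 and 10, as did the cluster of Tmie and Als2cl. Nrip1, a corepressor of nuclear receptors, had 13 and 11, and Tmem131 14 and 12. The ubiquitin ligases Znrf1 and Znrf2 had 15 and 13, and 11 and 10. Gtf2ird2 with Ncf1, a subunit of the phagocyte NADPH oxidase, and Gtf2i had 16 and 14. Rps6ka1, the kinase RSK1, the cluster near Hilpda and one near Gm40469 had 11 and 10. Across gaps of up to 25 kb the ratio was below 1 at Rps6ka1 (0.841), near Hilpda (0.95), Znrf2 (0.902), Tmem131 (0.879) and Cyria (0.957). Near Hilpda it was also below 1 with gene ends not dropped (0.95) and with peaks under a −log10 q-value of 10 dropped (0.90). The cluster near Gm40469, with a median control fold of 2.61, kept 7 of its 10 control peaks and had 4 treatment-only peaks. With lists of equal length its ratio was 2.75, and that of Znrf1 2.14.

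**Figure D5:**
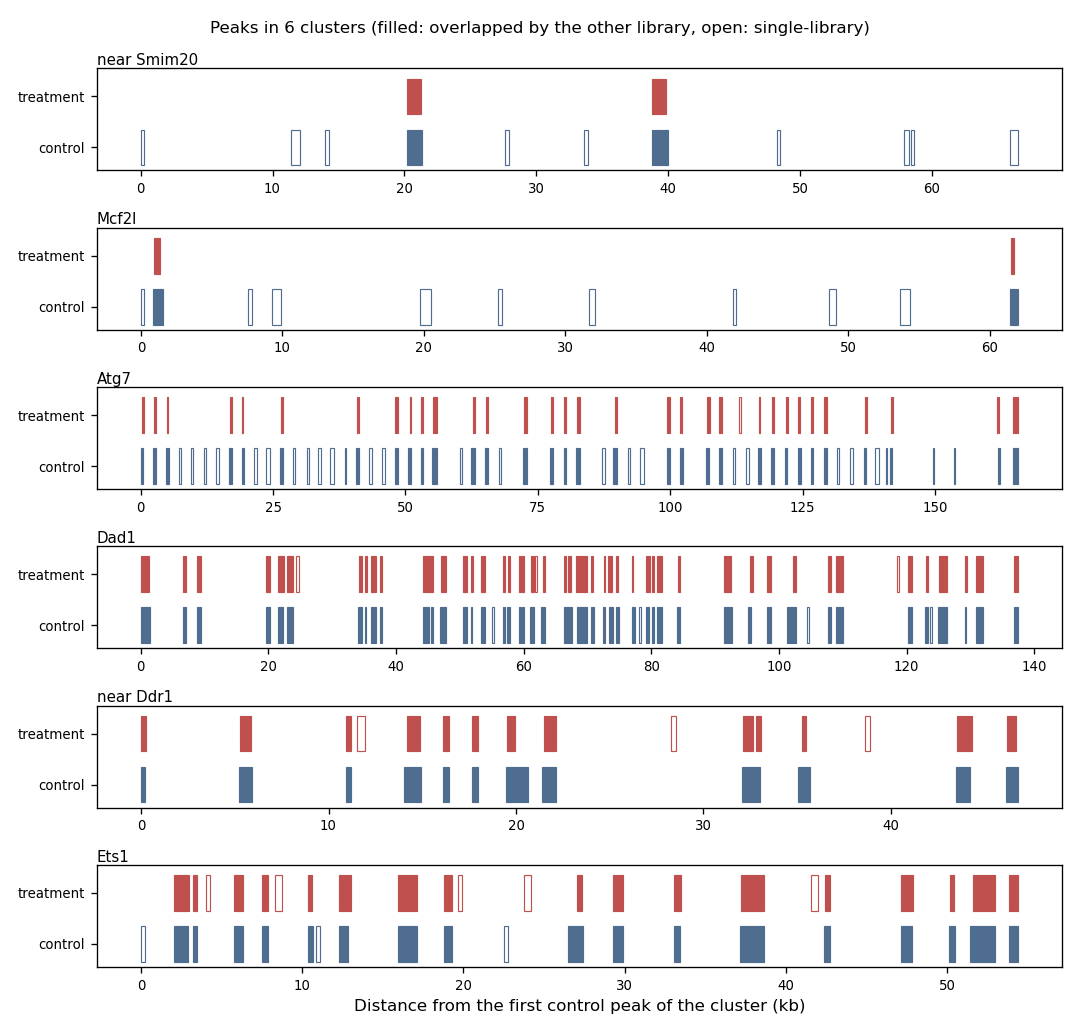
Peaks away from gene ends in 6 clusters, treatment above control in each panel, along the distance in kb from the first control peak; filled bars overlap a peak of the other library and open bars do not. The clusters near Smim20 and at Mcf2l each keep 2 of 11 control peaks, Atg7 keeps 32 of 58 evenly spaced ones, the Dad1 cluster keeps 45 of 49, and those near Ddr1 and at Ets1 hold 3 and 5 treatment-only peaks.

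The largest clusters kept their number of peaks to very different degrees. The 10 with most control peaks had 385 treatment and 468 control peaks, with ratios of 0.569 to 1. The largest, at chr6:114495042-114660720, overlapped Atg7, an enzyme of autophagy, but only 4 of its 58 control peaks lay in the gene. It had 33 treatment peaks, a ratio of 0.569. With lists of equal length the ratio was 1.65, and with peaks under a −log10 q-value of 10 dropped it was 0.234, so its place in the order of the 10 changes with the setting. Its control summits were evenly spaced, with a median of 2449 bp and an interquartile range of 2368 to 2577 bp, and 78.9% of the spacings lay within 20% of the median. Across the 739 clusters the median of this share was 22.2%.

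More regular still was the cluster near Gas8, at chr8:123538464-123629526, which overlapped 48 ribosomal RNA genes of the 5S array. It had 51 peaks in both libraries, every control peak had a treatment partner, and 96.0% of its spacings lay within 20% of a median of 1695 bp. Reads from near-identical repeat copies cannot be placed with certainty in an rRNA array, so the peaks near Gas8 are uncertain as separate regions. No rRNA gene was annotated in the Atg7 cluster, and whether it or any other cluster holds repeat copies was not tested. Without the 2 clusters near Gas8 and at Atg7, a setting chosen after seeing the data, the ratio over the other 737 was 0.795.

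Among the rest of the 10, the cluster with Myh9, a non-muscle myosin, Txn2, Foxred2, Apol8 and Apol9b had 44 treatment and 52 control peaks. Prex1, a Rac exchange factor of leukocytes, had 37 and 49, and Mbnl1, a splicing regulator, 36 and 49. Septin9, a cytoskeletal GTPase, had 31 and 44 with no treatment-only peak. Bcl2, the survival factor, had 39 and 43, with 34 control peaks kept and 5 treatment-only. With lists of equal length the ratio was 2.05 at Bcl2 and 1.57 at Mbnl1, and with a gap of 5 kb that of Mbnl1 was 0.40. Gpr183, an oxysterol receptor that guides lymphocytes, shared a cluster with Ubac2 and had 31 and 37. Ankrd11, a chromatin regulator, shared one with Cdh15 that had 35 and 36.

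Clusters at the antigen receptor loci numbered 12. The T cell receptor alpha and delta locus on chromosome 14 held 7, with 140 treatment and 156 control peaks, a ratio of 0.897, and 85.9% of the control peaks had a treatment partner. The last of these, at chr14:54102046-54239528, covers 67 gene segments and ends at Dad1, and had 48 treatment and 49 control peaks, and 45 of those control peaks had a partner. The T cell receptor beta locus on chromosome 6 held 3, with 44 and 53 peaks and a ratio of 0.830, and 81.1% of its control peaks were kept. The immunoglobulin heavy chain locus on chromosome 12, which is the antigen receptor of B cells, held 2, with 18 and 27 peaks, a ratio of 0.667 and 55.6% kept. B cell markers had gene-end peaks at 3 of 6 genes in both libraries, as given above, and the part of other cells in these values was not tested. In a bulk library, fewer cells of a type and less open DNA per cell cannot be told apart. The immunoglobulin clusters differed: one, at chr12:113193333-113265561, had 14 treatment and 16 control peaks, a ratio of 0.875, and the other, with 4 and 11 and a ratio of 0.364, is one of the 15 lowest. The low pooled ratio of the pair rests on that cluster.

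Genes of T cell state and identity were listed with earlier results of these data known, so their overlap with clusters is a description. Counts given at a gene are those of the whole cluster span, which can cover other coding genes too. Of 137 genes of 6 T cell lists, 50 (36.5%) overlapped a cluster, against 4 of 48 genes of 6 lists of other cells (8.33%) and 4.62% of all protein-coding genes. Long genes meet a cluster more easily, and the median length was 25.8 kb in the T cell lists, 16.6 kb in the others and 17.5 kb over all genes. No gene of the B cell, NK cell, stromal or neuron and liver lists overlapped one. Itgam and Itgax, integrins of myeloid cells, shared 1, and Il4 and Il13 shared 1, each with 7 treatment and 10 control peaks. The 50 clusters at T cell list genes had 810 treatment and 955 control peaks, a ratio of 0.848 and a median of 0.860, beside 0.795 and 0.80 over all clusters. Of the 50, 1 had a ratio of 0.5 or less, the Tox2 cluster, and 8 had 1 or more. Over all 739 clusters these shares were 6.09% and 13.8%.

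The T cell receptor and lineage list had 17 of 30 genes in 16 clusters, with 294 treatment and 353 control peaks and a ratio of 0.833. Of its receptor parts, Cd8a and Cd8b1 shared a cluster with 17 treatment and 20 control peaks, Cd247, the zeta chain, had 14 and 15, and Cd5 and Cd6, inhibitory coreceptors, shared one with 20 and 22, of which 4 were treatment-only. Of the signalling proteins, Lcp2, the adaptor SLP-76, had 17 and 20, Zap70 13 and 18, Rhoh 29 and 31, and Ptprc, the phosphatase CD45, 25 and 34. The Zap70 span also covered 4933424G06Rik and Tmem131, that of Rhoh covered N4bp2 and Chrna9, and that of Cd5 and Cd6 covered Vps37c. The ratios of Ptprc and Cd247 were 1.67 and 1.40 with lists of equal length. Of the lineage factors, Bcl11b had 25 and 33, Runx3, which silences Cd4 in CD8 cells, 17 and 23, Ikzf1, which encodes Ikaros, 24 and 27, and Fli1 24 and 27 in the larger of its 2 clusters. Among clusters of this list with 15 or more control peaks, ratios ran from 0.722 at Zap70 to 1.10 at Ets1. Of the smaller ones, named after their values were seen, Lck had 8 and 10 and Thy1 9 and 13.

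The naive and memory list had 11 of 20 genes in 13 clusters, with 223 treatment and 243 control peaks. Its ratio of 0.918 lay above those of the other T cell lists, and its median was 0.923. A ratio of 1 or more was found in 5 of the 13 clusters, beside 13.8% of all 739. A higher ratio at naive and memory loci had been seen earlier in these libraries, so this is not an independent reading. Bach2, a repressor of effector genes, had 24 and 26, Lef1, a partner of TCF1, 16 and 18, Ccr7, the receptor for lymph node entry, 20 and 23, and Id3, an inhibitor of E proteins, 19 and 23. The Lef1 span also covered Hadh, that of Ccr7 covered Smarce1, and that of Id3 covered Rpl11 and E2f2. Foxp1, a factor of quiescence, had 3 clusters, the largest of which had 16 in each library. Smaller clusters, named after their values were seen, were those of Tcf7 with 12 and 13 and Satb1, a chromatin organiser, with 6 and 10.

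The effector list had 6 of 26 genes in 6 clusters, with 69 treatment and 91 control peaks and a ratio of 0.758. None of the 6 clusters stood at 1 or more, beside 13.8% of all 739. Il2ra, the high-affinity IL-2 receptor chain, had 17 and 18, Il2rb 15 and 21, Tbx21, which encodes T-bet, 11 and 15, and Batf3 10 and 15. The Il2rb span also covered Kctd17, Tmprss6, C1qtnf6 and Sstr3, that of Tbx21 covered Tbkbp1, and that of Batf3 covered Nsl1. No treatment-only peak was found in the clusters of Il2rb, Tbx21 and Batf3, as in 464 of all 739. Prdm1, whose inner promoter is printed above, had 7 and 12, and Gzmb 9 and 10, both clusters of under 15 control peaks named after their values were seen. Inhibitory receptor and exhaustion genes had 5 of 22 in 5 clusters, with 64 and 76 peaks and a ratio of 0.842. They were Ctla4 with 17 and 18, Nr4a1 with 15 and 15, Nfatc1 with 17 and 21, Nfatc2 with 12 and 12, and Tox2 as given above. The Nr4a1 span also covered Acvr1b and Grasp, and that of Nfatc1 covered Atp9b. The ratio at Nfatc1 was 1.31 with lists of equal length. Neither Pdcd1, Lag3, Havcr2, Tigit nor Tox overlapped one of the 739.

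Activation and costimulation genes had 8 of 24 in 7 clusters, with 98 and 115 peaks and a ratio of 0.852. Fyn, a kinase of the receptor, had 25 and 30, Cd69, an early activation marker, 16 and 18, Prkcq, the kinase PKC theta, 15 and 16, and Nfkb1 14 and 18. The Nfkb1 span also covered Manba. Migration and residency genes had 4 of 16 in 4 clusters, with 84 and 97 peaks and a ratio of 0.866. S1pr5, a receptor for tissue exit, lay with Tyk2, Keap1 and others in a cluster of 30 and 33, and Selplg, the ligand of P-selectin, had 12 and 16. The Selplg span also covered Tmem119 and Coro1c.

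Of the 109 clusters between genes, 16 had a gene of the T cell or other lists as their nearest coding gene. These 16 had 146 treatment and 189 control peaks, a ratio of 0.772. Among them was a cluster 1111 bp from Klrb1c, an NK cell marker, with 7 and 10. Over all 109 the ratio was 0.784, against 0.796 for the clusters that overlapped a gene. On chromosome 12, 3 clusters in a row had Id2, the inhibitor of E proteins in effector cells, as their nearest gene. They lay 36002, 112730 and 198418 bp away and had 5, 15 and 9 treatment peaks, against 10, 19 and 11 control peaks. On chromosome 15, 3 clusters had Myc as their nearest gene, at 132181, 219578 and 788460 bp, with 10, 11 and 9 treatment peaks, against 11, 12 and 13 control peaks. The cluster 2979 bp from Ifng, the effector cytokine, had 14 and 18, the one 53424 bp from Eomes 10 and 10 with every control peak kept, and those at 1083 and 67347 bp from Fasl 11 and 11, and 7 and 12. The cluster nearest to Jun, at 10595 bp, had 5 and 10. Clusters near one gene thus differed among themselves, and no cluster between genes is tied to its neighbour by these data.

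Single strong control peaks without a treatment peak were found in clusters that otherwise kept most of their peaks. The strongest, with a fold of 20.7, was in the cluster of Gsn, the actin regulator gelsolin, at chr2:35246895-35247509, where treatment had 11 peaks and control 14. The next, with 19.8, was in the cluster of Zfyve28 at chr5:34266010-34266594, with 12 and 13. Those after it were in the clusters of Ptp4a2 (18.9), Mbnl2 (18.1) and Myo6 (17.9). Of the 10 strongest, 2 lay in the 15 clusters of lowest ratio, those near Smim20 and near Cyria, and the 15 held 108 of the 2595 control peaks without a partner.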

How the data were processed

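ATAC-seq peak lists of 1 treatment and 1 control library of mouse CD8+ T cells were used. Per the submitters' processing notes the tools were cutadapt 2.5, Bowtie2 2.3, Picard 2.20 and MACS2, with build mm10; settings, duplicate filters and any read shift are not given in the sources used here. Each deposited peak carries the authors' score, fold enrichment as a ratio, −log10 p-value and −log10 q-value, and a summit position. Peaks were called per library. Read numbers were not used, so the depth is unknown and limits how firmly a missing peak can be read.

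Gene spans came from RefSeq (GRCm38.p6, the assembly of mm10), with 20661 protein-coding genes on chromosomes 1 to 19. A treatment peak belongs to a cluster if it overlaps its span by at least 1 bp and no gene-end window; a control peak is kept if any treatment peak overlaps it. The steps ran in Python 3.11.15 with scipy 1.17.1 and were tested on simulated peaks. Named clusters were the 15 lowest and 15 highest by ratio, the 10 with most control peaks and those at listed genes with 15 or more control peaks. Of 188 listed genes, 185 lay on these chromosomes. The 12 gene lists and the clusters were chosen with earlier results of these data known. Alternatives changed the gap, minimum size, gene-end window, q-value, list length, source of stitching and overlap. Chromosomes X and Y and unplaced contigs were left out. Some items are not reported here.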

Additional observations from a re-analysis of the deposited data

How the results depend on the processing

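The number of clusters depends on how they are drawn: 36 with a gap of 5 kb, 1723 with 25 kb, 238 with a minimum of 15 peaks, 1378 with no gene ends dropped and 374 when stitched from treatment peaks. The ratio of treatment to control peaks stayed below 1, at 0.755 with a gap of 25 kb, 0.830 with both lists merged and 0.985 when stitched from treatment, except with lists of equal length, where it was 1.04. The share of control peaks in clusters with a treatment peak was 79.5% and 71.4% with gaps of 5 and 25 kb, 77.6% with a minimum of 15, 86.3% with lists of equal length, 88.4% when stitched from treatment, 69.5% with 50% reciprocal overlap and 69.6% with summits within 150 bp. It exceeded that of other control peaks by 10.6 percentage points, and under every alternative run it stayed above, by 12.7 and 8.55 points with gaps of 5 and 25 kb, 11.5 with a minimum of 15, 7.52 with no gene ends dropped, 7.45 with equal lists, 23.4 when stitched from treatment and 8.06 by summits. Clusters at a ratio of 0.5 or less numbered 1 and 163 with gaps of 5 and 25 kb, 5 with a minimum of 15, 79 with no gene ends dropped, 9 with equal lists and 0 when stitched from treatment. Clusters at 1 or more numbered 6 with a gap of 5 kb, 24 with a minimum of 15, 167 with no gene ends dropped, 453 with equal lists, 198 when stitched from treatment and 188 with both lists merged. Gene-end peaks inside spans had a treatment peak in 100% (gap of 5 kb), 82.4% (window of 2.5 kb), 90.02% (peaks under a −log10 q-value of 10 dropped), 93.96% (equal lists), 89.9% (stitched from treatment), 82.1% (reciprocal overlap) and 80.5% (summits).

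Of 712 values of named clusters under these alternatives, 28 passed from a ratio under 1 to one above it. Of these, 26 were with lists of equal length, 1 with low q-values dropped (Cd247, 1.08) and 1 when stitched from treatment (Cd5, 1.06). Another 9 went from above 1 to below it: with a gap of 25 kb Tmem131 (0.879), Rps6ka1 (0.841), Hilpda (0.95), Znrf2 (0.902), Ets1 (0.962) and Cyria (0.957), with no gene ends dropped Hilpda (0.95) and Fkbp5 (0.971), and with peaks under a −log10 q-value of 10 dropped Hilpda (0.90). Moves of over 1.5 times numbered 20, of which 16 were with lists of equal length. The cause was not tested. With lists of equal length 9 of the 15 lowest clusters stayed at 0.5 or less. Leaving out the 2 clusters of most regular spacing, a setting chosen after seeing the data, left the ratio at 0.795 and the share at 75.8%. With no gene ends dropped there is no separate gene-end value. No paired analysis was possible because each group has 1 library. Without read numbers, a peak absent from one list may be a region just under the threshold of the caller.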

Other observations

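Of the 374 clusters stitched from treatment peaks, 48 overlapped no control cluster, with 592 treatment and 439 control peaks and 192 treatment-only peaks. They were looked at after the results above were seen. Their control counts ran from 0 to 15. The only one with no control peak lay at Sprr2a1 and Sprr2a2, genes of the epidermal barrier, on chromosome 3, with 10 treatment peaks of a median fold of 2.70. Next by ratio came Gm5373 on chromosome 8 with 17 and 4 and 4930467E23Rik on chromosome 8 with 10 and 3, also of weak peaks, with medians of 2.55 and 2.37. Genes of the 6 T cell lists lay at 5 of the 48 (10.4%) and at 41 of all 374 (10.96%). The 5 were Foxo1, a factor of quiescence and homing, with 11 treatment and 10 control peaks, Tox with 10 and 9, Cblb, a ubiquitin ligase that restrains T cell activation, with 10 and 10, Lef1 with 10 and 8, and Foxp1 with 11 and 8. Lef1 and Foxp1 also overlap control clusters elsewhere in the gene. Of the lists of other cells, 1 gene lay at one of the 48, the B cell marker Cd79a, with 10 and 7.

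The rule applied to chromosomes X and Y, which the clusters leave out, gave 6 spans. Elf4, an ETS factor of CD8+ T cell quiescence, had 10 treatment and 11 control peaks, Sh3kbp1 13 and 13, Mid1 10 and 11, Araf 8 and 12, a stretch 110755 bp from Olfr1324 27 and 26, and Gm52481 on Y 27 and 32.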
